A study of Mus musculus with 35 samples.

Results

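Trimethylation of lysine 4 on histone H3 (H3K4me3) was compared between neutrophils and lineage-negative haematopoietic stem and progenitor cells (HSPC) of wild-type C57BL/6 mice. The comparison used 4 of the 35 samples of the series, 2 H3K4me3 libraries of WT neutrophils and 2 of WT HSPC. Peaks of the 4 libraries were merged into 44502 regions. A region was gained when both neutrophil libraries and neither HSPC library had a peak there, and lost in the reverse case, which gave 6564 gained regions (14.7% of all regions) and 5929 lost regions (13.3%). The remaining regions comprised 21900 with a peak in all 4 libraries (shared) and 10109 with another combination.

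Both cell types came from bone marrow flushed from femurs and tibias after lysis of red blood cells. HSPC were what a lineage depletion kit left and neutrophils were taken with a neutrophil isolation kit, so each group is a kit-enriched mixture. The design text states 2 biological replicates per cell state. The sources used here give no age, no sex and no number of mice behind a library. The other H3K4me3 libraries of the series came from HSPC of Npm1c, Flt3-ITD and DM mice, 2 of each, and entered the shared estimate of spread. H3K27ac and H3K4me1 libraries of the same cell groups, 2 per group and mark, were used as readouts that the H3K4me3 rule had not touched.

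H3K4me3 is laid down at the start sites of genes by the COMPASS and MLL family of methyltransferases, and CpG-rich promoters carry it in most cell types. H3K4me1 marks enhancers and promoter flanks, and H3K27ac marks active promoters and enhancers. Neutrophils are short-lived granulocytes of the bone marrow. Their granule proteins are made in successive waves during maturation in the marrow, primary granules first and secondary and tertiary granules later.

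The start sites at which H3K4me3 appeared in neutrophils were mostly poor in CpG, as were start sites without a peak in any of the 4 libraries. The following promoters are shown for the contrast with lost and shared start sites. Each run holds the 250 bases before the start site of a RefSeq transcript (GRCm38.p6, the assembly also called mm10), 5′ to 3′ on the gene's strand, with every CpG in capitals. Ceacam10 (chr7:24776917-24777166, plus strand), Cxcr1 (chr1:74194632-74194881, minus strand) and Olfm4 (chr14:80000052-80000301, plus strand) had a peak within 1 kb of the start in both neutrophil libraries and in neither HSPC library. Each of these 3 runs holds 4 CpG.
Ceacam10: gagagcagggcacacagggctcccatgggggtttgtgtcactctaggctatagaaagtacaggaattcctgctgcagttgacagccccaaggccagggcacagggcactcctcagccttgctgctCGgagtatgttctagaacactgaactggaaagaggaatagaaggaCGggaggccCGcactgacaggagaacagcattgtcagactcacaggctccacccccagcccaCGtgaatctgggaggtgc
Cxcr1: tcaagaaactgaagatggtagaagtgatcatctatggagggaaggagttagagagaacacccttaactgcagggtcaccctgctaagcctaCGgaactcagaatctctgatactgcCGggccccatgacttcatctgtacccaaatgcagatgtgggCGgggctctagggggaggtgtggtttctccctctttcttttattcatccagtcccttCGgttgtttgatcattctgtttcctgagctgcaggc
Olfm4: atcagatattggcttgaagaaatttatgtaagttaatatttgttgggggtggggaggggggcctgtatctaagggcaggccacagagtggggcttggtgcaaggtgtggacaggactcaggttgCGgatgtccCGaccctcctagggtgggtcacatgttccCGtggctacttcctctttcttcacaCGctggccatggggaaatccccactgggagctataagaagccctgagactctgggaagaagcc

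Start sites that lost H3K4me3 were of both kinds. Hbb-bt (chr7:103813924-103814173, minus strand), an adult beta-globin gene, has 0 CpG in its run. Cpa3 (chr3:20242182-20242431, minus strand), a mast cell carboxypeptidase, has 3. Lmx1b (chr2:33641099-33641348, minus strand), a homeobox transcription factor of limb and brain development, has 19.
Hbb-bt: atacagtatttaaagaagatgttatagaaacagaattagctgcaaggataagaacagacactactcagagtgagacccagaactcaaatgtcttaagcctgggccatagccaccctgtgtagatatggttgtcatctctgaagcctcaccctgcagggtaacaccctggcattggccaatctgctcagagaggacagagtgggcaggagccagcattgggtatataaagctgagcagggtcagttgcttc
Cpa3: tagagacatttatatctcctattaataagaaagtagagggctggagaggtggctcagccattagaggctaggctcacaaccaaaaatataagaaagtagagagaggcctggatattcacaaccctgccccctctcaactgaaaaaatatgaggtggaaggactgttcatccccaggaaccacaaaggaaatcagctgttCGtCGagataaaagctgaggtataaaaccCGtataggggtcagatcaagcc
Lmx1b: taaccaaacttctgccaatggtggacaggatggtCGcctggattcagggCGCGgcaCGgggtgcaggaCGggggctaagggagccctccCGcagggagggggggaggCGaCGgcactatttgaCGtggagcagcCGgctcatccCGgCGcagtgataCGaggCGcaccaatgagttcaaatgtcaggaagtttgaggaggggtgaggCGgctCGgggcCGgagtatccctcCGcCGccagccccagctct

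A pair of promoters with a peak in all 4 libraries is given for reference. S100a8 (chr3:90668821-90669070, plus strand), a subunit of calprotectin and an abundant neutrophil protein, has 2 CpG, and its start site was already marked in HSPC. Cebpa (chr7:35119043-35119292, plus strand), a transcription factor that granulocyte development depends on, has 22.
S100a8: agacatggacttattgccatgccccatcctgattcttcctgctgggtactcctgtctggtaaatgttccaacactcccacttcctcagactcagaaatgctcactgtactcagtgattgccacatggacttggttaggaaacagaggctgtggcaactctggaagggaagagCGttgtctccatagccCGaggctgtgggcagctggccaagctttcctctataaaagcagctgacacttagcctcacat
Cebpa: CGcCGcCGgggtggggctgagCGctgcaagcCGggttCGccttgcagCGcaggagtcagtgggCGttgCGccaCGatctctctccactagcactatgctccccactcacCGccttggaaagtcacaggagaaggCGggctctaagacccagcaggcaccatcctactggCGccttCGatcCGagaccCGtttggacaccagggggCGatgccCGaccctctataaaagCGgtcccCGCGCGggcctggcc

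Sequence depth is unknown, because the deposited lists hold peak positions without reads or scores. The HSPC lists held 30310 and 34333 peaks and the neutrophil lists 31416 and 32298, and all but 1 peak in each HSPC list were 1000 bp wide. Covered length was 30.3 and 34.3 Mb in HSPC and 31.4 and 32.3 Mb in neutrophils, and the groups overlapped (two-sided exact permutation p = 1.0). With 2 libraries a group no such test can give a p under 0.333. By base pairs, the Jaccard index (length in both lists over length in either) was 0.822 between the neutrophil libraries, 0.693 between the HSPC libraries and 0.464 to 0.494 across cell types.

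The labels were checked against marker genes. All 14 neutrophil markers had H3K4me3 peaks in all 4 libraries, with a summed coverage of 35.6 and 33.5 kb in HSPC and 44.1 and 51.1 kb in neutrophils. H3K27ac told the cell types apart at the same markers, with 2.72 and 2.67 kb in HSPC and 33.3 and 34 kb in neutrophils. Of 9 HSPC markers, 6 had no H3K27ac in either neutrophil library (Kit, Cd34, Flt3, Gata2, Meis1 and Hoxa9), while all 9 kept H3K4me3 in at least 1 of them. Markers of mast cells, basophils and eosinophils covered 5 and 10.0 kb of H3K4me3 in HSPC, where all 4 markers had a peak, and 0 kb in neutrophils. Erythroid markers covered 9 kb in each HSPC library and 3 kb in each neutrophil library. In libraries from mixtures, fewer cells of a type and less of the mark per cell cannot be told apart.

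Gained regions lay away from start sites. A RefSeq start site of a protein-coding gene was within 1 kb of 182 of 6386 gained regions (2.85%), of 899 of 5750 lost regions (15.6%) and of 26.6% of all regions. Chromosome 18 was left out of these 3 shares. Among shared regions the share was 46.2%. Inside gene spans without a start site nearby lay 59.8% of gained and 52.3% of lost regions, and outside gene spans lay 37.3% of gained and 32.1% of lost regions. Median width was 1045 bp for gained and 1066 bp for lost regions, about 1 peak each.

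Gained, lost and all regions had similar shares with H3K4me1 in HSPC. Both HSPC libraries had an H3K4me1 peak at 78.0% of gained regions, at 80.1% of lost regions and at 77.0% of all regions. In neutrophils H3K4me1 was present in both libraries at 86.8% of gained regions but at 37.6% of lost regions, against 68.9% of all regions. H3K27ac was present in both neutrophil libraries at 37.3% of gained and 1.99% of lost regions, against 35.2% of all regions. Away from start sites, with chromosome 18 left out, these shares were 37.1%, 1.71% and 26.2%. In both HSPC libraries H3K27ac was present at 4.19% of gained and 20.0% of lost regions, against 30.9% of all regions. H3K27ac in both neutrophil libraries and in neither HSPC library was found at 2120 gained regions (32.3%), against 10.6% of all regions. At 48.7% of lost regions no neutrophil library had a peak of either other mark, against 14.5% of all regions.

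**Figure D1:**
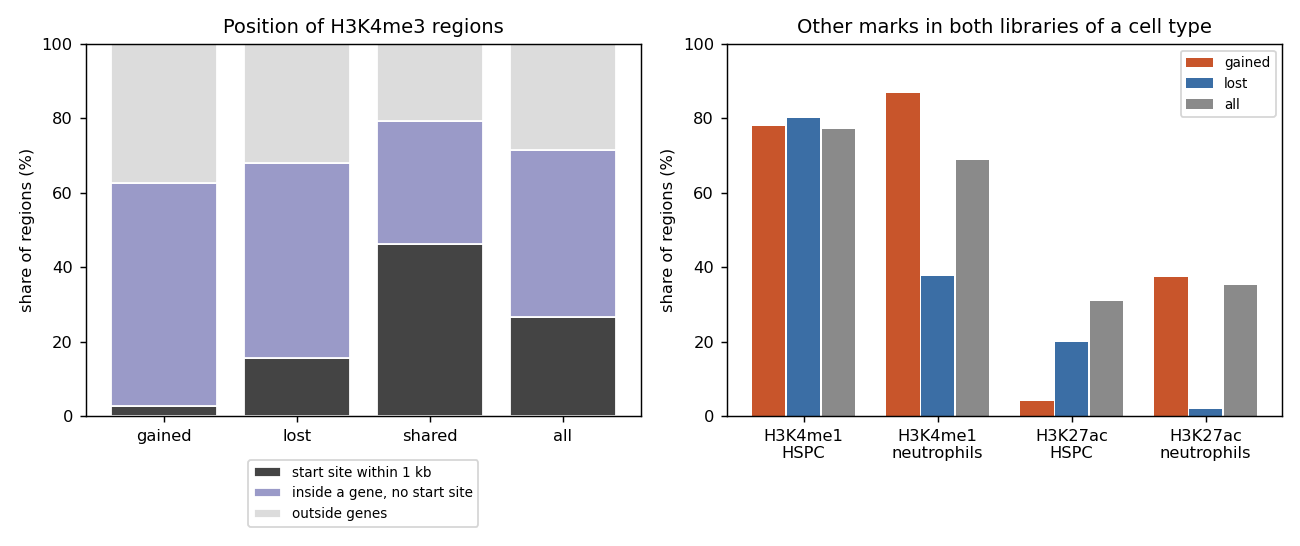
Left, share of gained, lost, shared and all merged H3K4me3 regions (%) near a start site, inside a gene or outside genes. Right, share of gained, lost and all regions (%) with H3K4me1 or H3K27ac in both libraries of a cell type. H3K27ac in neutrophils overlay 37.3% of gained, 1.99% of lost and 35.2% of all regions.

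Among single regions, the widest gained ones spanned more than 2 kb each. They lay in Pik3r5 (chr11:68440004-68442297), a regulatory subunit of the PI3-kinase that acts below chemoattractant receptors, in Gsr (chr8:33684207-33686478), glutathione reductase, in Krt83, in Fkbp15, and at Igsf6 and Mettl9. The widest lost regions lay at Map1a and Trp53bp1 (chr2:121293928-121296762), in Adgrg1 (chr8:94996983-94999507), an adhesion receptor of stem cells also called Gpr56, in Tec, a kinase of lymphoid and myeloid signalling, at the start of Mcpt8, a basophil protease, and in Arhgef10. Leaving out a library loosens the rule for its group to a peak in 1 of 1 library, and each such setting raised both counts. Lost regions rose the most without the HSPC library of replicate 1, to 10207 in place of 5929, with 7155 gained. The HSPC list that then remained was the longer of the pair.

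Peaks of the other cell type lay near some of these regions. Within 5 kb of a gained region, 38.8% had an HSPC peak, and within 5 kb of a lost region, 29.3% had a neutrophil peak. Within 1 kb the shares were 7.63% and 6.92%. Gained and lost regions therefore included sites with and sites without a peak of the other cell type within 5 kb.

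Stitching peaks over gaps of up to 2 kb, a step added after the data were seen, turned the peaks into 37968 domains and showed stretches of repeated peaks. Mean covered length was at least 2 kb higher in neutrophils at 435 domains and at least 2 kb lower at 245. Only domains whose libraries did not overlap between the cell types were counted. Of these, 340 of the domains with more coverage had no HSPC peak and 197 of those with less had no neutrophil peak. Domains of 8 kb or more numbered 16 in each HSPC library and 30 and 33 in neutrophils (exact permutation p = 0.333, the smallest possible). For 5 kb or more the counts were 201 and 262 against 250 and 286, which overlapped (exact permutation p = 0.667).

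The domains at Fpr1 and Cybb gained the most coverage. At Fpr1, a receptor for formylated bacterial peptides, the domain at chr17:17864803-17877525 held 0 and 0 kb in HSPC and 6 and 5 kb in neutrophils. At its neighbour Fpr2 (chr17:17893495-17901634) coverage was 0 and 0 kb against 4 and 3 kb. At Cybb, the catalytic subunit of the phagocyte NADPH oxidase, the domain at chrX:9446656-9462524 held 1 and 0 kb in HSPC and 6 and 5 kb in neutrophils. Here and below, domains were ranked only where the libraries of the cell types did not overlap, so separation in every library was a condition of the choice. Also among the 20 domains with the largest gain were N4bp1, Ankrd11, some domains outside genes and a pair of domains in Mroh2a, each with 0 and 0 kb against 4 and 5 kb. Sgms2, a sphingomyelin synthase, had 1 and 1 kb against 5 and 5 kb. Ceacam10 had 0 and 0 kb against 4 and 4 kb, at the promoter printed above. Anxa1, a regulator of neutrophil migration, and Clec12a, an inhibitory myeloid receptor, both went from 0 and 0 kb to 3 and 4 kb.

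Of the domains with less coverage in neutrophils, the one at Lmx1b lost the most. At Lmx1b (chr2:33636243-33643521) coverage was 4 kb in each HSPC library and 0 kb in each neutrophil library. At Hbb-bt (chr7:103809252-103814651) and in the spectrin gene Sptb (chr12:76669973-76677216) it was 3 kb in each HSPC library and 0 kb in neutrophils. In Zfpm1 (chr8:122312818-122326485), which encodes FOG1, a partner of GATA1, coverage was 4 and 5 kb against 1 and 1 kb. The homeobox and forkhead genes Barx1, Foxd3 and Pou3f3 were also among the 20 domains with the largest reduction, as were genes of other kinds such as Minpp1, Pacsin2, Rere and Clip2. Foxd3 (chr4:99650657-99661445) went from 5 and 4 kb to 2 and 1 kb.

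Covered length was then summed over each gene span with 5 kb on each side and tested for 16138 protein-coding genes by limma with Benjamini-Hochberg adjustment, threshold 0.05. Coverage was higher in neutrophils at 1085 genes (6.72%) and lower at 1594 genes (9.88%), with a median change of 0.0 over all genes. Of the genes called higher, 97 had no HSPC peak (8.94%), and of the genes called lower, 586 had no neutrophil peak (36.8%). A difference of about 1 peak made up 43.1% of the rises and 53.2% of the falls, and 212 rises and 145 falls reached 3 kb. Windows of neighbouring genes overlap, and the median span of genes called higher was 30.0 kb, against 22.9 kb for all tested.

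These calls rest on how well replicates matched. Because peaks have a fixed width, 1162 of the 2679 called genes (43.4%) and 37.7% of all tested genes had no spread between replicates in any group, so their p-values are not printed. If every group is taken to vary by at least 1 peak, limma called 0 genes at the threshold (smallest adjusted p = 0.129), with 742 higher and 1462 lower genes at an unadjusted p under 0.05. The words "rose" and "fell" below refer to the limma test without that floor. Every gene called had all 4 differences between single libraries in 1 direction, as did 5651 of all 16138 genes tested.

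Of the 12 largest rises, the calls of 8 held without each single library. Hdac4, a class II histone deacetylase, had 3 and 4 kb in HSPC and 14 and 14 kb in neutrophils, a log2 change of 1.87 ± 0.25 (SE; limma adjusted p = 0.00507). Log2 changes are on log2(bp + 500), which understates the change of genes with few peaks. Stim2, a calcium sensor of the endoplasmic reticulum, had 2 and 3 kb against 12 and 13 kb (log2 change 2.13 ± 0.19, limma adjusted p = 0.000719). Ptprc, which encodes the leukocyte antigen CD45, had 3 and 3 kb against 12 and 11 kb (log2 change 1.78 ± 0.17, limma adjusted p = 0.000899). In all 3 genes the lowest neutrophil library stood at least 8 kb above the highest HSPC library. Srpk2, Ankrd44, Cmip, Rbm47 and Cyrib, a regulator of RAC1 signalling, rose as well, Ankrd44 from 6 and 6 kb to 14 and 15 kb.

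Etv6 and Mroh2a added the most coverage of the 12. Etv6, an ETS transcription factor, had 11 and 13 kb in HSPC against 22 and 25 kb in neutrophils (limma adjusted p = 0.0334). Mroh2a had 2 and 2 kb against 13 and 14 kb (limma adjusted p = 0.045). Their calls, and those of Sgms2 (4 and 4 kb against 13 and 13 kb) and of Elmo1, an activator of RAC signalling (7 and 10.0 kb against 17 and 18 kb), depended on all libraries. With any 1 of the 4 libraries left out, the adjusted p was 0.0855 to 0.17 for Etv6, 0.148 to 0.189 for Mroh2a, 0.0677 to 0.0834 for Sgms2 and 0.0324 to 0.161 for Elmo1. Elmo1 passed only without the HSPC library of replicate 2.

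H3K27ac rose at 10 of the 12 genes with the largest rises in H3K4me3 and fell at 7 of the 12 with the largest falls, against 12.5% higher and 23.4% lower of all genes tested in H3K27ac (36.0% in all). H3K4me1 rose at 0 of the 12 rises and fell at 9 of the 12 falls, against 4.54% higher and 17.7% lower of all genes. These genes were ranked by covered length, and each spans more than the median of 22.9 kb of all genes tested. The shares over all genes are therefore not those of genes of like length. At Hdac4 H3K27ac covered 2.34 and 2.1 kb in HSPC and 11.5 and 12.8 kb in neutrophils (limma adjusted p = 0.0015). At Stim2 it covered 1.44 and 1.85 kb against 7.65 and 7.17 kb (limma adjusted p = 0.00286). At Cmip it covered 6.68 and 6.22 kb against 27.2 and 30.1 kb. Around the start sites of Stim2 and Cmip H3K4me3 did not rise: within 2.5 kb of a start site the log2 change was -0.02 for Stim2 and -0.37 for Cmip. The added coverage at these genes lay elsewhere in the window. Of 73 named calls that could be tested around start sites, 32 held, 37 ended and 4 changed direction, and among those that ended were Hdac4, Srpk2, Ankrd44, Ptprc, Rbm47, Etv6 and Mroh2a.

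Gse1 and Zfpm1 had the largest falls among the genes named by the same rule. Gse1, a chromatin factor, had 30.0 and 40 kb in HSPC and 15 and 15 kb in neutrophils (limma adjusted p = 0.0347). This call ended without any 1 of the 4 libraries (adjusted p 0.055 to 0.162). Zfpm1 had 13 and 16 kb against 2 and 3 kb, a log2 change of -2.34 ± 0.26 (SE; limma adjusted p = 0.00205), and held without each library. H3K27ac at Zfpm1 covered 12.6 and 13.4 kb in HSPC and 0.294 and 0.218 kb in neutrophils. Within 2.5 kb of start sites the log2 change was 0.34 at Gse1 and 0.37 at Zfpm1, and the lost coverage lay outside those windows. Sh3pxd2a, a scaffold of podosomes, fell from 10.0 and 11 kb to 4 and 4 kb (limma adjusted p = 0.00763). Lmx1b had 6 kb in each HSPC library and no peak in neutrophils (limma adjusted p = 0.00217), and no H3K27ac peak in any of the 4 libraries. The 12 largest falls also included Ank1, Cyth3, Fryl, Nck2, Pcdhga6, Pitpnc1 and Prkce. Like Gse1, each of these genes lost its call when at least 1 library was left out.

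**Figure D2:**
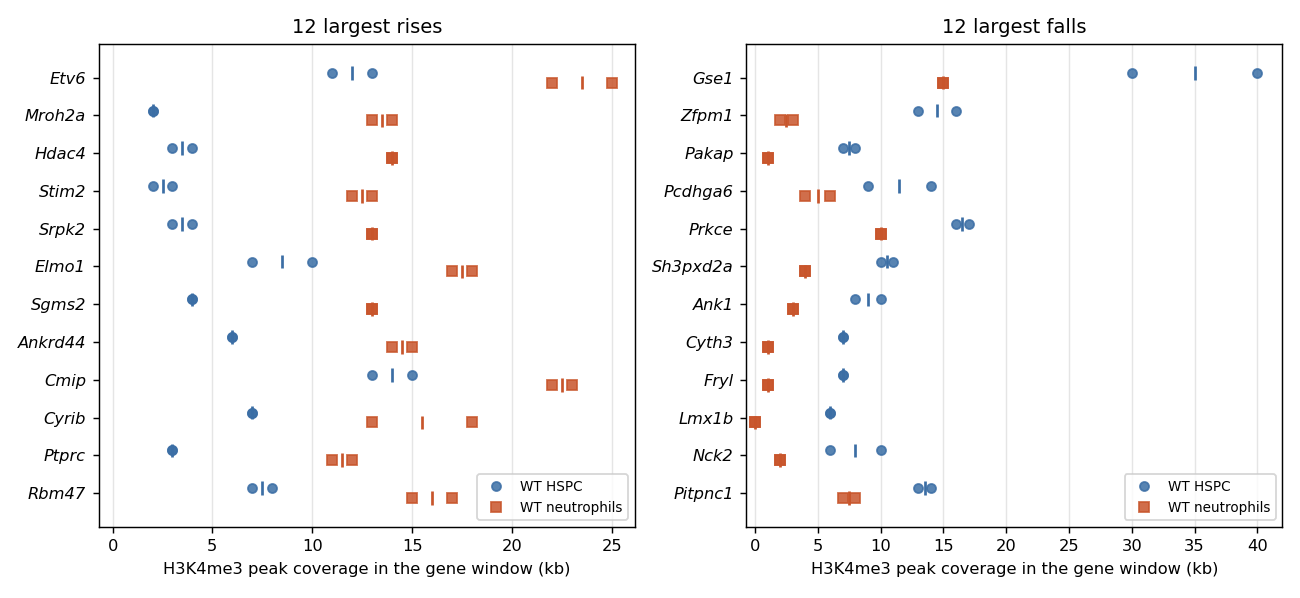
H3K4me3 coverage (kb) in the gene window for the 12 largest rises and 12 largest falls called by limma. Circles are the 2 WT HSPC libraries, squares the 2 WT neutrophil libraries and ticks the means, and the groups do not overlap at any of these genes, as holds for every called gene.

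Genes were then read by function, against 6.72% higher and 9.88% lower among all genes in H3K4me3 and 12.5% higher and 23.4% lower in H3K27ac. Secondary and tertiary granule genes encode the gelatinase, lactoferrin and antimicrobial proteins of maturing neutrophils. Of 19 tested members, 4 rose in H3K4me3 and none fell, and 18 had a peak in both HSPC libraries. In H3K27ac, 15 of 17 tested members rose and none fell, and 12 of the 15 had no H3K4me3 call. With 1 of the 4 libraries left out, 2 or 3 members rose in H3K4me3 and 13 in H3K27ac. Ngp, neutrophilic granule protein, had 2 kb of H3K4me3 in all 4 libraries and 0.23, 0, 6.13 and 6.39 kb of H3K27ac in HSPC 1, HSPC 2, neutrophils 1 and neutrophils 2 (limma adjusted p = 3.9e-05 for H3K27ac). Camp, the cathelicidin, had 1 and 1 kb of H3K4me3 in HSPC and 1.61 and 1.58 kb in neutrophils (limma adjusted p = 0.748). Its H3K27ac was 0 and 0 kb against 1.18 and 1.94 kb. Mmp9, gelatinase B, had 4.41 kb of H3K4me3 in each HSPC library and 4.36 and 4.35 kb in neutrophils, while its H3K27ac was 0 and 0 kb against 1.15 and 1.34 kb. At these genes H3K4me3 was thus present in the HSPC libraries without H3K27ac or with little of it.

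The granule genes with an H3K4me3 call included Olfm4, which encodes a protein of a subset of neutrophil granules. It had no HSPC peak, 3 kb in each neutrophil library, and no H3K27ac peak in the 4 libraries. Mmp25, a membrane-anchored metalloproteinase, had 2 and 2 kb in HSPC and 5 and 6 kb in neutrophils (log2 change 1.26 ± 0.07, limma adjusted p = 8.29e-05). Its H3K27ac went from 0 and 0 kb to 2.99 and 3.58 kb. Anxa1 had 2 and 2 kb against 4 and 5 kb (limma adjusted p = 0.0489), and with 1 library left out the adjusted p was 0.11 to 0.233. Pglyrp1, a peptidoglycan recognition protein, had 3 and 3 kb against 4 and 5 kb (limma adjusted p = 0.0143) and lost its call without either HSPC library (highest adjusted p 0.074).

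Primary granule genes are expressed earlier, at the promyelocyte stage. Of 13 tested members, all had peaks in both cell types, 2 rose and 1 fell. Mpo, myeloperoxidase, had 4 and 5 kb of H3K4me3 in HSPC and 5 and 5 kb in neutrophils (limma adjusted p = 1.0). Its H3K27ac was 2.99 and 2.98 kb in HSPC and 0 kb in both neutrophil libraries (limma adjusted p = 0.000674). Ctsg, cathepsin G, had 2 kb of H3K4me3 in every library, with H3K27ac at 2.12 and 2.19 kb against 0.297 and 0 kb (limma adjusted p = 0.00282). These were the 2 of 10 tested members that fell in H3K27ac, and 1 member rose. Serpinb1a, an inhibitor of granule serine proteases, rose from 1 kb in each HSPC library to 3 kb in each neutrophil library.

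The calprotectin and S100 list had 6 tested members, of which 4 rose in H3K27ac. In H3K4me3 none rose and 1 fell. S100a10 was the gene that fell, by less than 1 peak, from 2.51 and 2.5 kb in HSPC to 2 and 2 kb in neutrophils (limma adjusted p = 0.0485). S100a8 had 2 and 1.92 kb of H3K4me3 in HSPC and 2 and 2 kb in neutrophils (limma adjusted p = 0.415). Its H3K27ac was 0 and 0 kb against 2.89 and 3.15 kb (limma adjusted p = 2.9e-05). S100a9, its partner, had 2 and 2 kb of H3K4me3 against 3 and 3 kb (limma adjusted p = 0.744), with H3K27ac at 0 and 0 kb against 3.58 and 3.26 kb. NADPH oxidase genes had 0 of 6 called in H3K4me3. In gene spans without the extension 3 of 6 were higher, against 1298 of 15400 genes tested. In H3K27ac 3 of 5 were higher and 1 lower, and with 1 library left out 0 or 1 was higher. Cybb was the nearest, with 3 and 1 kb against 7 and 6 kb over its whole window (log2 change 1.61, limma adjusted p = 0.0558).

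Of 21 chemoattractant and cytokine receptors, 5 rose in H3K4me3 and none fell, and 13 of 19 rose in H3K27ac. Csf3r, the receptor of the granulocyte growth factor G-CSF, had 2.57 and 2.04 kb in HSPC and 4.05 and 5.06 kb in neutrophils (limma adjusted p = 0.0169). Without the HSPC library of replicate 2 or the neutrophil library of replicate 2 its call ended (highest adjusted p 0.0861). Cxcr1, a receptor of neutrophil-attracting chemokines, had no HSPC peak and 1 kb in each neutrophil library, at the promoter printed above. Cxcr2 had 2 and 3 kb against 4 and 5 kb without passing the test (limma adjusted p = 0.227). Fpr1 had 2.22 and 2.43 kb against 4.74 and 4.76 kb in its gene window (limma adjusted p = 0.596). With 1 of the 4 libraries left out, 3 to 5 members of the list rose in H3K4me3 and 8 or 9 in H3K27ac.

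Of 28 innate receptor and signalling genes 10 rose in H3K4me3 and none fell. In gene spans without the extension only 6 rose, against 1298 of 15400 genes tested. Tlr13, a sensor of bacterial ribosomal RNA, had 2 and 2 kb in HSPC and 6 and 5 kb in neutrophils (limma adjusted p = 0.0353), and 0.109 to 0.171 with 1 library left out. Lilrb4a, an inhibitory receptor, had no HSPC peak and 2 kb in each neutrophil library. In H3K27ac, 16 of 27 members rose. With 1 of the 4 libraries left out, 5 to 7 members of the list rose in H3K4me3 and 7 or 8 in H3K27ac. Among 16 adhesion and Fc receptor genes 3 rose and 1 fell. Fcgr3, a low-affinity IgG receptor, went from 1 and 1 kb to 4 and 5 kb (log2 change 1.73 ± 0.09, limma adjusted p = 4.13e-05). Icam1, an adhesion ligand, fell by about 1 peak, from 3.96 and 3.98 kb to 2.99 and 3 kb.

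Interferon-stimulated genes had 3 of 18 higher, all of the Ifitm family, whose neighbouring windows share peaks. In gene spans without the extension, Ifitm3 had a log2 change of -0.0682 and Ifitm6 was lower (log2 change -0.29, limma adjusted p = 0.0135). In H3K27ac 4 of 17 rose and 4 fell. Ifitm2 had 1 kb in each HSPC library and 2 kb in each neutrophil library. Inflammatory cytokines and chemokines had 2 of 18 higher and 1 lower, each by less than 1 peak. Of 24 granulocyte transcription factor genes 4 rose and none fell. Ets2 went from 1 kb in each HSPC library to 2 kb in each neutrophil library, and Fosl2, an AP-1 subunit, from 2 to 3 kb. Max had 3 and 2 kb against 7 and 7 kb (limma adjusted p = 0.0355), and 0.0529 to 0.164 with 1 library left out. Cebpe, required for the later granule stages, had 3 kb of H3K4me3 in all 4 libraries and 0, 0, 3.19 and 3.84 kb of H3K27ac in HSPC 1, HSPC 2, neutrophils 1 and neutrophils 2.

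Genes of the erythroid lineage serve haemoglobin and the red cell membrane. Of 24 tested members, all had H3K4me3 in both HSPC libraries, 13 fell and none rose, and 12 had no peak in neutrophils. The list's median log2 change was -1.58, against 0.0 for all genes. In H3K27ac, 20 of 22 fell. Rhag, a red cell membrane channel, had 4 and 5 kb in HSPC and none in neutrophils (limma adjusted p = 0.0018). Hbb-bt had 3 kb in each HSPC library and none in neutrophils (limma adjusted p = 0.00102). Gata1, the master regulator of the erythroid lineage, had 2 kb in each HSPC library and none in neutrophils (limma adjusted p = 0.0122). By contrast Klf1 and Epor, an erythroid transcription factor and the erythropoietin receptor, had 2 kb of H3K4me3 in all 4 libraries. Without 1 of the libraries, 10 or 11 members fell.

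Lists of other lineages that the HSPC preparation can give rise to, or hold, had falls in H3K4me3 as well. Of 18 megakaryocyte genes 6 fell, among them Gp1ba, a platelet adhesion receptor, from 3 kb in each HSPC library to 1 kb in each neutrophil library. Of 18 B-lymphoid genes 8 fell, among them the recombinase genes Rag1, from 2 and 2 kb to 0 kb (limma adjusted p = 0.00105), and Rag2, from 3 and 3 kb to 1 and 1 kb (limma adjusted p = 0.000766). Of 15 T and NK cell genes 5 fell, among them Gata3, from 6 kb in each HSPC library to 2 kb in each neutrophil library. None of these 3 lists had a member that rose in H3K4me3. H3K27ac gave other counts: 5 of 15 megakaryocyte genes fell and 2 rose, 1 of 11 B-lymphoid genes fell and 2 rose, and 1 of 6 T and NK cell genes fell and 2 rose. With 1 library left out, 5 members fell in the megakaryocyte list, 5 to 8 in the B-lymphoid list and 4 to 6 in the T and NK cell list.

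Mast cell, basophil and eosinophil genes had 5 of 13 lower in H3K4me3, none higher, and a median log2 change of -1.95. In H3K27ac 3 of 6 tested members were higher and 1 lower. Cpa3 had 2 and 3 kb in HSPC and none in neutrophils (limma adjusted p = 7.78e-05). Prss34, a protease of basophils and mast cells, had 2 and 2 kb against none (limma adjusted p = 0.00105). Fcer1a, the IgE receptor subunit, had 1 and 2 kb against none (limma adjusted p = 0.00241). Neither Cpa3, Prss34 nor Fcer1a had an H3K27ac peak in these 4 libraries. Of 17 dendritic cell genes 4 fell and 1 rose, with Ccr7 going from 3 and 3 kb to 0 kb (limma adjusted p = 0.000153). The monocyte and macrophage list had 0 of 15 called, and all 15 had peaks in both cell types. Csf1r, the receptor of the macrophage growth factor, had 1 kb in each of the 4 libraries.

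Of 30 stem and progenitor genes 9 fell and 1 rose in H3K4me3, and 13 of 26 fell and 2 rose in H3K27ac. Angpt1, a ligand made by stem cells, fell from 7 and 6 kb to 1 and 1 kb (log2 change -2.22 ± 0.09, limma adjusted p = 1.61e-05). Msi2, an RNA-binding regulator of stem cells, fell from 9 and 10.0 kb to 4 and 4 kb (limma adjusted p = 0.0215), and Meis1, a HOX cofactor, from 10.0 and 11.2 kb to 6 and 6 kb (limma adjusted p = 0.047). Without any 1 of the 4 libraries neither of the last 2 calls held (adjusted p 0.0685 to 0.109 for Msi2 and 0.108 to 0.208 for Meis1). Flt3, a cytokine receptor of early progenitors, had 5 kb of H3K4me3 in all 4 libraries, while its H3K27ac went from 0.942 and 0.718 kb to 0 kb. Cd34 had 1 kb in all 4 libraries. Kit had 5 and 4 kb against 2 and 3 kb (limma adjusted p = 0.511). Of this list, 5 to 7 members fell and none rose when 1 library was left out.

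HOX genes set position in the embryo and are active in stem cells. Of 20 tested, 7 fell and 1 rose. Hoxb3 went from 8.25 and 8.28 kb to 5.30 and 5.28 kb (log2 change -0.60 ± 0.08, limma adjusted p = 0.00373), and Hoxa10 from 5.09 and 5.04 kb to 3.41 and 3.61 kb (limma adjusted p = 0.000261). Their windows overlap those of neighbouring HOX genes, so these 7 calls share peaks. Leaving out 1 library, 4 or 5 members fell.

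Of 35 genes of DNA replication and mitosis, all had peaks in all 4 libraries, 2 rose and 1 fell, while 15 fell and none rose in H3K27ac. Top2a had 1 kb of H3K4me3 in all 4 libraries, and its H3K27ac went from 1.36 and 1.46 kb to 0.625 and 0.648 kb (limma adjusted p = 0.00232). Cdc6, a replication licensing factor, was the gene that fell, from 6 kb in each HSPC library to 3 kb in each neutrophil library. Of 20 nucleolar and ribosome biogenesis genes 1 rose and none fell in H3K4me3, and 11 fell in H3K27ac. These H3K4me3 counts depended on the window. In gene spans without the extension, 5 of the 35 replication and mitosis genes fell in H3K4me3 and 0 rose. Of the 20 nucleolar genes 9 fell and 1 rose. Over all genes, 2266 of 15400 fell in such spans and 1298 rose. Myc had 1 and 2 kb of H3K4me3 against 2 and 1 kb, with H3K27ac at 2.95 and 3.03 kb against 0 kb (limma adjusted p = 6.4e-05). Of 16 housekeeping genes 1 rose and 1 fell. Genes of other tissues had 2 of 9 lower. When 1 library was left out, 5 to 8 of the replication and mitosis genes and 6 or 7 of the nucleolar genes fell in H3K27ac.

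Fewer members were called when the lists of all libraries were thinned at random to equal length. Of 16080 genes tested, 410 were then higher and 609 lower. Then 2 of 28 innate receptor genes, 1 of 20 chemoattractant and cytokine receptors, 1 of 16 adhesion and Fc receptor genes, 2 of 19 secondary and tertiary granule genes and 3 of 24 granulocyte transcription factors rose. Of the lists with falls, 6 of 24 erythroid, 6 of 30 stem and progenitor, 3 of 18 megakaryocyte, 3 of 18 B-lymphoid, 3 of 15 T and NK cell, 1 of 13 mast cell, basophil and eosinophil, 1 of 17 dendritic cell and 1 of 20 HOX genes fell.

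**Figure D3:**
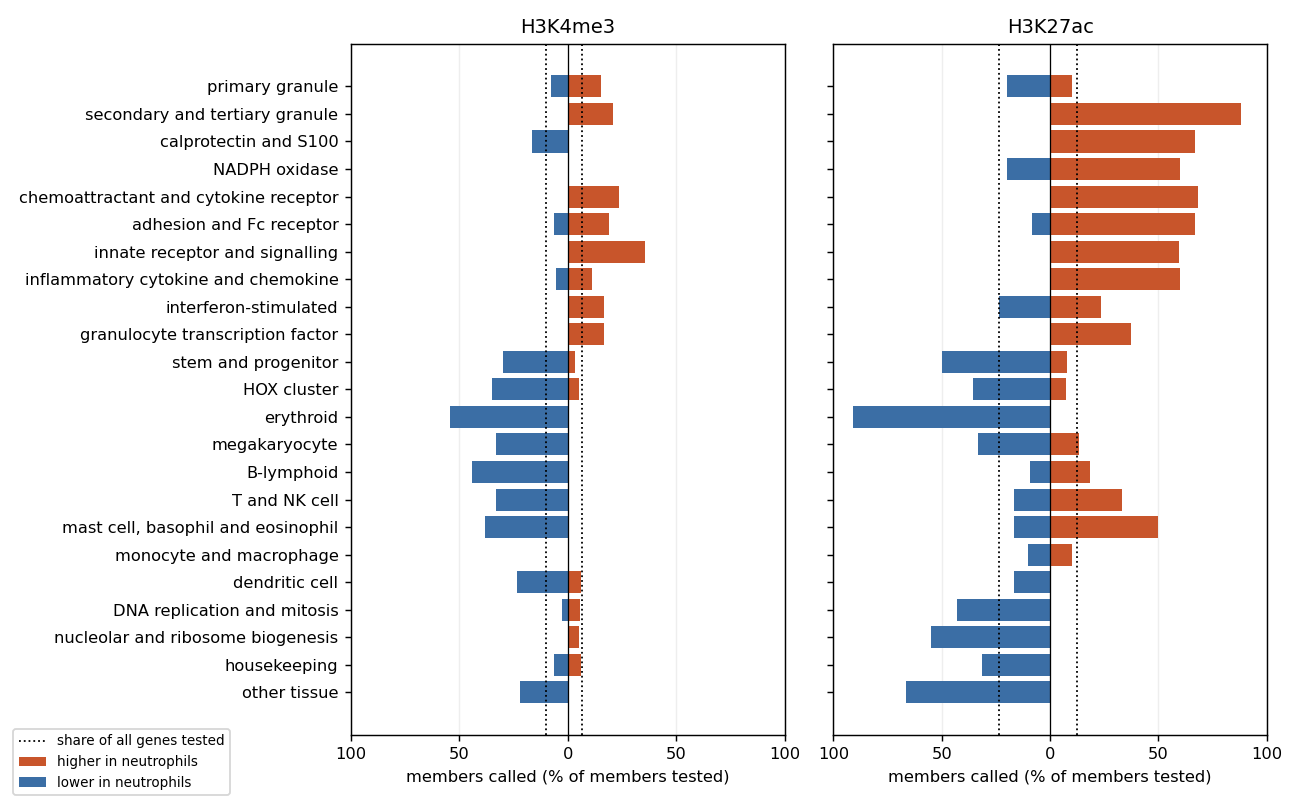
Members of each gene list called higher (right of 0) or lower (left of 0) in neutrophils, as a share of the members tested (%), for H3K4me3 and H3K27ac; dotted lines give the share among all genes tested. Of secondary and tertiary granule genes 4 of 19 rose in H3K4me3 and 15 of 17 in H3K27ac, and of erythroid genes 13 of 24 fell in H3K4me3 and 20 of 22 in H3K27ac.

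Across all genes, the marks moved together in part. In H3K27ac, tested over 12972 genes, 1624 were higher and 3040 lower. Of the genes higher in H3K4me3 that were tested in H3K27ac, 422 of 990 (42.6%) were also higher in H3K27ac and 59 were lower. Of those lower in H3K4me3, 367 of 940 (39.0%) were also lower in H3K27ac and 27 were higher. Over all genes tested, the median log2 change in H3K27ac was -0.12. After centring every library on its median log2 value, 2503 genes were higher and 2686 lower in H3K27ac, and 537 were higher and 339 lower in both marks. With 1 library left out, the counts in both marks were 254 to 272 higher and 193 to 220 lower. In H3K4me1, 142 of 1081 genes higher in H3K4me3 were also higher (13.1%, against 4.54% of all genes) and 575 of 1559 lower genes were also lower (36.9%, against 17.7%). With centring, 377 were higher in both H3K4me1 and H3K4me3, and with 1 library left out 62 to 76 were.

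CpG content was compared between start sites by H3K4me3 status. Of 21263 start sites of 17492 protein-coding genes, 118 sites of 109 genes were gained and 950 sites of 838 genes were lost, with 12108 marked in all 4 libraries and 7512 in none. Observed over expected CpG in the 300 bases from 250 before to 50 after the start had a median of 0.22 at gained, 0.51 at lost and 0.781 at shared start sites, and 0.185 where no library had a peak. A ratio of 0.6 or more was found at 4.24% of gained, 38.5% of lost, 75.9% of shared and 47.7% of all start sites. Where no library had a peak it was found at 5.52%. Gained start sites have no HSPC peak by the rule, and in CpG they were close to these unmarked sites. Some of these start sites had a peak of the other cell type just outside the window of 1 kb. Leaving out those with such a peak within 5 kb, 70 gained sites had a median of 0.209 and 792 lost sites a median of 0.536, and a ratio of 0.6 or more was found at 1.43% and 41.2%. Of the 863 genes called higher that have a listed start site, 47 (5.45%) had a gained one and 710 (82.3%) a shared one. Of 1224 called lower, 471 (38.5%) had a lost one and 620 (50.7%) a shared one.

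**Figure D4:**
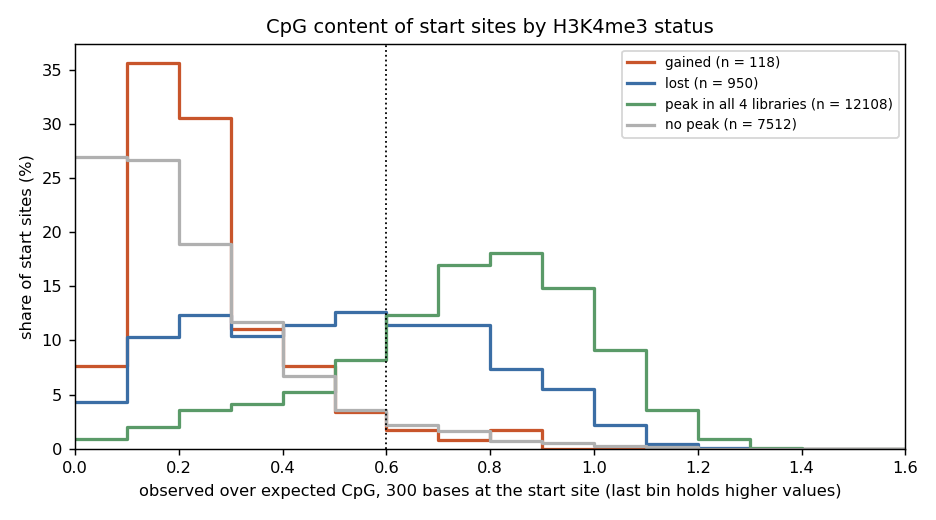
Observed over expected CpG (x axis, ratio) in 300 bases at protein-coding start sites, as the share of start sites of each H3K4me3 status (y axis, %). Gained start sites lie with unmarked ones at low ratios (medians 0.22 and 0.185), shared ones are highest (0.781) and lost ones lie between (0.51); the dotted line is a ratio of 0.6.

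Short motifs were counted in the same 300 bases on either strand. The PU.1 type site GAGGAAGT was found at 8.48% of gained, 1.47% of lost and 3.13% of all start sites. The C/EBP palindrome TTGCNNAA was found at 17.8%, 8.11% and 10.2%, the RUNX core TGTGGT at 28.0%, 14.5% and 15%, and the AP-1 site TGANTCA at 13.6%, 5.90% and 6.99%. The ETS core GGAAGT, which the PU.1 type site contains, was found at 30.5%, 15.3% and 24.8%. The GC box GGGCGG was found at 18.6% of gained, 48.7% of lost and 46.2% of all start sites. The shares of gained start sites rest on 118 sites. Start sites without a peak are similarly poor in CpG. They held the C/EBP palindrome at 14.0%, the RUNX core at 20.1% and the AP-1 site at 11%. The PU.1 type site was at 3.45% of them, the ETS core at 20.5% and the GC box at 12.4%. The IRF element was at 2.54% of gained, 2.84% of lost, 3.35% of all and 4.11% of unmarked start sites. In that order, the TATA box was at 15.3%, 8.42%, 12.6% and 23.3%, and the CCAAT box at 41.5%, 34.2%, 38.2% and 40.1%. GATA sites (AGATAA) were found at 9.32% of gained, 12% of lost, 9.65% of all and 15.9% of unmarked start sites. These letters are descriptions of the sequence and not of binding.

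MicroRNAs were examined in windows of 5 kb on each side of 1005 RefSeq hairpins. Coverage did not overlap between the cell types at 73 hairpins that were higher in neutrophils and 79 that were lower, 15.1% in all. Of the genes tested, 5651 of 16138 (35.0%) did not overlap, but the shares are not alike. Hairpins were counted with or without a peak, while genes had to be covered and mostly have longer windows. The erythroid pair Mir144 and Mir451a had 2 kb in each HSPC library and none in neutrophils. On chromosome X, Mir322 had 4 kb in each HSPC library and 1 kb in each neutrophil library, Mir503 had 3.83 and 3.80 kb against 1 and 1 kb, and Mir542 had 2 kb in each HSPC library and none in neutrophils. Mir10b, which lies among the Hoxd genes, had 1 kb in each HSPC library and none in neutrophils. Mir139 went the other way, from none to 1 kb in each neutrophil library. Mir223, a microRNA abundant in neutrophils, had 1 kb in all 4 libraries. Neighbouring hairpins share peaks. The mature forms (RefSeq, GRCm38.p6) are shown with the seed, bases 2 to 8, in capitals; miR-322-5p and miR-503-5p have bases 2 to 7 in common, AGCAGC, and the others listed have seeds of their own.
miR-144-3p: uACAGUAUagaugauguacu
miR-451a: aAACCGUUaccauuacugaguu
miR-322-5p: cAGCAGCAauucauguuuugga
miR-503-5p: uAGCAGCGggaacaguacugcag
miR-542-3p: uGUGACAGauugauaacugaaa
miR-10b-5p: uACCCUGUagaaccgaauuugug
miR-139-5p: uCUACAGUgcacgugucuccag
miR-223-3p: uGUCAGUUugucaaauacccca

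The neutrophil regions were also looked up in HSPC of the mutant groups. Npm1c is a mutant form of nucleophosmin and Flt3-ITD an internal tandem duplication in the Flt3 receptor, and the labels do not spell out DM. At regions gained in neutrophils, an H3K4me3 peak was present at 8.43% and 8% in the Npm1c libraries, 15.2% and 23.5% in the Flt3-ITD libraries and 20.4% and 28.8% in the DM libraries. At lost regions a peak was present at 95.9% and 86.3% in Npm1c, 74.3% and 93.8% in Flt3-ITD and 40.9% and 52.2% in DM. Of all regions, a peak was present at 72.8% and 69.1% in Npm1c, 68.3% and 76.2% in Flt3-ITD and 62.2% and 67.2% in DM. The DM libraries had fewer of the lost regions than any other mutant library. At gained regions DM and Flt3-ITD overlapped and both lay above Npm1c. Within each mutant group the longer list had the higher shares. Between groups the shares did not follow list length: the DM list of replicate 2 held 37050 peaks and the Npm1c list of replicate 2 held 32463. WT HSPC stand at 0% and 100% by the rule, and the shares were not tested.

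**Figure D5:**
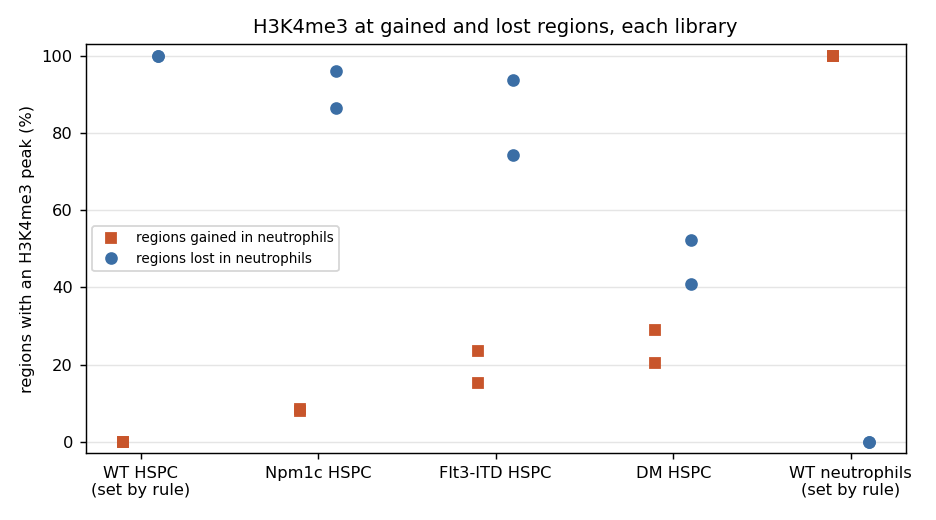
Share of gained and lost regions (%) with an H3K4me3 peak in each of the 10 libraries, 2 points per group and status. WT groups are at 0% or 100% by the rule; lost regions kept a peak at 40.9% and 52.2% in the DM libraries and at 74.3% or more in the other mutant libraries.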

How the data were processed

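H3K4me3, H3K27ac and H3K4me1 peak lists of 30 libraries were read. Each deposited file lists peaks by chromosome, start and end and holds no score, read count or depth (unit: other). Per the submitters' processing notes, Bowtie2 2.1.0, Picard, HOMER and MACS2 were used with the mm10 build. Further versions, the role of each tool and thresholds are not stated there. Peaks were called per library, and 5 input samples were not analysed here.

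Regions were peaks of the 4 libraries merged where they overlapped or touched, and an overlap of 1 bp made a region present. Gene spans, start sites and sequences came from RefSeq tables of GRCm38.p6. Covered bp of each gene span with 5 kb on each side was taken as log2(bp + 500) for the 16138 of 21887 protein-coding genes that 2 or more of the mark's 10 libraries covered. The 5 groups of a mark were fitted without scaling in R 4.3.3 by limma 3.58.1 (functions lmFit and eBayes, trend on), and the neutrophil and WT HSPC groups were contrasted, with Benjamini-Hochberg adjustment over all genes and a threshold of 0.05. Values per library were compared by exact permutation tests. The fit was tested on simulated data. Gene lists, 23 in all with 447 entries, have no test of their own and are given as counts beside all genes.

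The named genes were, among called genes with 4 differences of 1 sign but no clone names, those with the 12 largest rises and the 12 largest falls (1 gene where windows overlap), up to 4 called members of each list, and the 5 widest gained and lost regions; not all are printed, and domains, microRNAs and uncalled list members were chosen after their values were seen. The members and lists were chosen with earlier results of these data known. Alternatives were other windows, pseudocounts, filters, centring, equal list lengths, a replicate block, other spread estimates and each library left out.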

Additional observations from a re-analysis of the deposited data

How the results depend on the processing

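Of the H3K4me3 counts per gene (1085 higher, 1594 lower), 2 planned settings moved both by over 1.5 times: a window of 2.5 kb around start sites (259 and 656) and lists thinned at random to equal length (410 and 609). A spread of at least 1 peak per group, added later, left 0 and 0. Without the extension of 5 kb 1298 and 2266 genes were called. Leaving out a library also loosens the region rule, which then asks for a peak in 1 of 1 library of that group. With 1 library left out the counts were 852 to 1027 and 1246 to 1814 per gene, 7155 to 7972 gained and 6295 to 10207 lost regions. In H3K27ac and H3K4me3 together, 254 to 272 genes were higher and 193 to 220 lower, and in H3K4me1 and H3K4me3 together 62 to 76 and 354 to 426. Centring on the median gave 377 genes higher in both H3K4me1 and H3K4me3. A replicate block gave 1009 higher and 1448 lower, and ended 14 of the 92 named calls. Correlations of same-numbered deviations ran from -0.231 to 0.104 for H3K4me3, -0.108 to 0.275 for H3K27ac and -0.112 to 0.0651 for H3K4me1. With 2 libraries a group they cannot show whether replicate numbers mark shared animals, which the labels do not state. Thinning ended 45 of the named calls, and 51 of the 92 held without each library.

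Directions reversed, on the log2 scale, at start sites for Stim2 (-0.0228), Cmip (-0.37), Gse1 (0.34) and Zfpm1 (0.37), and in thinned lists for S100a10 (0.0273), Ly6c2 (-0.56) and Il23a (0.32). In gene spans alone they reversed for Cxcl2 (-0.0013), Ifitm3 (-0.0682), Ifitm6 (-0.29, limma adjusted p = 0.0135) and Aurkb (-0.0184). The cause was not tested. A stricter threshold of the authors was not run, since the lists hold no score. Fixed peak width, unknown depth and 2 libraries a group limit all of these calls.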
